A study of Homo sapiens with 16 samples.

Results

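The genes described here are 51 transcripts of the cell cycle, 22 that act in S phase and 29 that act in mitosis, out of 60606 gene names counted in each of 16 RNA libraries. They were found by gene name in the count tables, and each of the 51 had enough counts to be tested in every comparison below. The libraries came from 786-O and A498, a pair of established lines of clear cell renal carcinoma. In 786-O there were 4 groups of 3 libraries: SETD2 knockout (KO) cells in A1331852, SETD2 wild-type (WT) cells in A1331852, KO cells in DMSO and WT cells in DMSO, all collected after 72 h. A1331852 is an inhibitor of the anti-apoptotic protein BCL-XL and was used at 100 nM, and DMSO is its vehicle. In A498 there were 2 libraries labelled SETD2 deficient and 2 labelled SETD2 add-back, with no treatment named. How the knockout and the add-back were made, and whether each is 1 clone, is not given in the sources used here.

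S phase genes are switched on late in G1, when cyclin-dependent kinases release E2F transcription factors from the retinoblastoma proteins. Mitosis genes follow in G2, driven by the MuvB complex with MYBL2 and FOXM1, largely through the CHR element and CCAAT boxes of their promoters. SETD2 is a histone methyltransferase that acts along transcribed genes and is often lost in this cancer, and cells without it have been linked to faulty DNA replication and repair. Both gene groups are commonly read as a sign of how many cells are dividing, and in RNA from a whole culture fewer dividing cells and less RNA per cell cannot be told apart.

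Totals ran from 14172118 to 36037616 counts per library. Levels are given in CPM, each count divided by its library size after TMM scaling over the 16 libraries, and levels are compared between genes only per kilobase of exon. Batches follow the labels. Batch 1 held all 6 A1331852 libraries and replicate 3 of both DMSO groups, batch 2 held replicates 1 and 2 of both DMSO groups, and batch 3 held A498. SETD2 itself stood at 29.2, 47.0 and 52.2 CPM in KO cells in A1331852, against 70.1, 68.7 and 62.8 CPM in WT cells in A1331852, and at 31.2, 29.4 and 29.3 CPM in KO cells in DMSO, against 70.5, 73.4 and 63.4 CPM in WT cells in DMSO. The genotypes did not overlap in 786-O, and replicates 2 and 3 of KO cells in A1331852 lay nearest the WT range. In A498 it stood at 40.6 and 58.6 CPM in the libraries labelled deficient, against 44.0 and 52.8 CPM in those labelled add-back, so SETD2 RNA did not separate those labels (log2 fold change 0.00, edgeR adjusted p = 0.991). PAX8, a renal lineage factor, had group means of 124 to 313 CPM. CA9, a target of the hypoxia pathway in this cancer, had means under 0.2 CPM in every 786-O group and of 0.80 CPM in deficient and 0.19 CPM in add-back A498 cells. The summed level of 11 leukocyte, endothelial and fibroblast markers was 5.12 to 14.3 CPM in 786-O and 42.6 to 67.9 CPM in A498. In A498 most of it was the fibroblast collagen COL1A1. PTPRC, a pan-leukocyte marker, never passed 0.325 CPM.

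Promoter sequence gives the background for reading both groups. RefSeq (GRCh38.p14) had at least 1 window of 250 bases before to 50 bases after a start for 42 of the 51 members, and 10 of the 42 had several starts, up to 4. A gene was counted as matching if any of its windows held the motif. Short motifs of 3 kinds were searched on both strands, each hit counted also where it overlapped another motif: the CHR element as TTTGAA or TTCGAA, an E2F site as either TTCCCGC or else TTCGCGC, with TTGCCGC and likewise TTGGCGC, and the box CCAAT. A CHR match lay in 16 of 23 mitosis members (69.6%) and 2 of 19 S phase members (10.5%), against 19.5% of all 27305 genes with a window. An E2F match lay in 6 of 23 mitosis members (26.1%) and 16 of 19 S phase members (84.2%), against 15.3% of all genes. A CCAAT match lay in 87% of mitosis and 68.4% of S phase members, against 39.7% of all genes, and CHR and CCAAT stood together in 1 window in 65.2%, 10.5% and 7.85% of these same 3 sets. With the first listed start of each gene alone, 15 mitosis members held CHR (65.2%, against 16.6% of all genes) and 13 S phase members held E2F (68.4%, against 13.1%), since CDC25C matched CHR, and GMNN, RRM2 and TK1 matched E2F, at a further start. A match is only a run of letters and does not show that a factor binds there. The 4 promoters below belong to members that passed a test in 786-O, a pair from each phase. They are written 5′ to 3′ on the gene's own strand, with every motif match in capitals.
MCM6, chr2:135876394-135876693, minus strand: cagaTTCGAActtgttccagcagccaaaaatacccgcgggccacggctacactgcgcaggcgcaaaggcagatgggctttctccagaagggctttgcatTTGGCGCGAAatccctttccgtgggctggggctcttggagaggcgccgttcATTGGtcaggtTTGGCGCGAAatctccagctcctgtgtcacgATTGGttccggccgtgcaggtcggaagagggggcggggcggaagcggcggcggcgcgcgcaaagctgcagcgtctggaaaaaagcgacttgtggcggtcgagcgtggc
CDT1, chr16:88803539-88803838, plus strand: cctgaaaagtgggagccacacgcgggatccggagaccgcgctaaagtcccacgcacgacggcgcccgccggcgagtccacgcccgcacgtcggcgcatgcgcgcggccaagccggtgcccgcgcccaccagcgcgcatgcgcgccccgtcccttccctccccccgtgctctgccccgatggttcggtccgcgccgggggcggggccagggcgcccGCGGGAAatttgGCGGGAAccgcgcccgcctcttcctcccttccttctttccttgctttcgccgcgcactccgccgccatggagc
CENPF, chr1:214602945-214603244, plus strand: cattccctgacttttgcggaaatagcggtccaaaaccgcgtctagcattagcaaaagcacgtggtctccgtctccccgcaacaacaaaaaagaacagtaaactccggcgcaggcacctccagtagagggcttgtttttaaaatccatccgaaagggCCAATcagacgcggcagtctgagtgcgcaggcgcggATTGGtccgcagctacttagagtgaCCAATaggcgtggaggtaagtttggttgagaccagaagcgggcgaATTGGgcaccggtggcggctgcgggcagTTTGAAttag
KIF20A, chr5:138178862-138179161, plus strand: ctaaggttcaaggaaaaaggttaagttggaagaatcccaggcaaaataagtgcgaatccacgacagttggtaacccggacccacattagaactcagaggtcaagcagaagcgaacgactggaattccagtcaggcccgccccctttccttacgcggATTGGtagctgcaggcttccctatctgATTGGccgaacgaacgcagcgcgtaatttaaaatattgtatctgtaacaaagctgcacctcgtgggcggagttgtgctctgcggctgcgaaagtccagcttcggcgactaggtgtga
MCM6 holds E2F matches at 2 places, where the run reads as a match on either strand, with a CHR match at the far 5′ end and 2 CCAAT matches. CDT1 holds 2 E2F matches and no CHR or CCAAT match. CENPF holds 4 CCAAT matches and a CHR match at bases 41 to 46 after the start. KIF20A holds 2 CCAAT matches and none of the letters searched for CHR or E2F.

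Within each group the members spanned a wide range of levels. Per kilobase, the median S phase member averaged 23.7 CPM in KO and 25.3 CPM in WT cells in A1331852, 25.1 CPM in KO and 28.2 CPM in WT cells in DMSO, and 28.9 CPM in deficient and 25.9 CPM in add-back A498 cells. E2F2, an activator E2F, was the lowest S phase member in all 6 groups, at 1.08 to 3.43 CPM per kilobase. The highest was either MYBL2, which helps switch on mitosis genes, or PCNA, the sliding clamp of the replication fork. Among mitosis members NUSAP1, a microtubule-binding protein, was lowest in all 6 groups, at 0.126 to 0.351 CPM per kilobase. Of its 3608 annotated exon bases, 81.4% are shared with another gene on the same strand, ENSG00000285920, so its count is uncertain. The highest mitosis member was UBE2C, the ubiquitin-conjugating enzyme of the anaphase-promoting complex, CDC20, that complex's activator, CCNB1, the mitotic cyclin B1, or TPX2, a spindle assembly factor, depending on the group.

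In 786-O the summed level of each phase overlapped between KO and WT cells under both treatments. The 22 S phase members summed to 2823, 2560 and 1970 CPM in KO and 3276, 2932 and 1775 CPM in WT cells in A1331852. They summed to 3324, 3353 and 2169 CPM in KO and 3503, 3634 and 1799 CPM in WT cells in DMSO. In every 786-O group replicate 3 was the lowest for S phase. The 29 mitosis members summed to 4778, 4166 and 3618 CPM in KO and 5595, 3857 and 4471 CPM in WT cells in A1331852. They summed to 5171, 5104 and 3823 CPM in KO and 5241, 5193 and 2359 CPM in WT cells in DMSO. WT replicate 3 in DMSO was the lowest of all 16 libraries for mitosis, and WT replicate 3 in A1331852 had the highest ratio of mitosis to S phase, at 2.52. A498 differed in that its labels did not overlap: S phase summed to 3679 and 3610 CPM in deficient and 3056 and 3112 CPM in add-back cells, and mitosis to 4478 and 5130 CPM in deficient and 3730 and 3720 CPM in add-back cells.

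**Figure D1:**
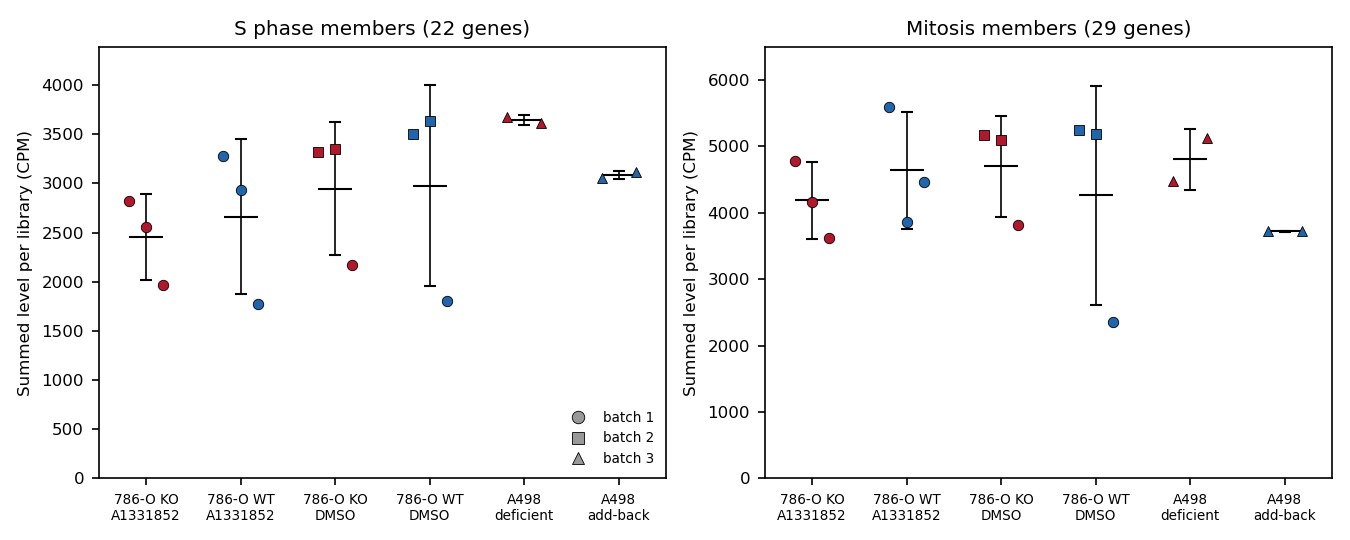
Summed level in CPM of the 22 S phase members (left) and the 29 mitosis members (right) in each of 16 libraries, by group, with point shape for batch and a bar for the group mean ± SD. In A498 the deficient libraries lie above the add-back libraries in both panels, while KO and WT overlap in 786-O and the lowest mitosis sum, 2359 CPM, is the batch 1 WT library in DMSO.

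Loss of SETD2 was compared in 786-O first under DMSO. Here 1 of 22 S phase members rose in KO cells, RRM1, and 0 of 29 mitosis members passed the test, while 18.5% of all 16260 genes tested were called in either direction and 8.29% higher (edgeR quasi-likelihood test, Benjamini-Hochberg adjusted p under 0.05 over all genes). At an unadjusted p under 0.05 there were 2 S phase and 6 mitosis members, compared with 32% of all genes. DESeq2 called 2 and 2, with 22.5% of all genes called. The median log2 fold change was -0.03 over S phase members, 0.19 over mitosis members and -0.02 over all genes.

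RRM1, the large subunit of ribonucleotide reductase that makes deoxynucleotides, stood at 189, 194 and 168 CPM in KO and 149, 148 and 97.3 CPM in WT cells in DMSO. All KO libraries lay above all WT libraries, and the log2 fold change was 0.50 ± 0.16 (adjusted p = 0.0468). This call was lost with any of the 6 DMSO libraries left out, with replicate 2 of either A1331852 group left out (adjusted p up to 0.287), and without the batch term. The S phase count was 2 without WT replicate 1 in A1331852 and 3 without WT replicate 3 in A1331852. The mitosis count was 3 without KO replicate 1 in A1331852, and 1 without KO replicate 3, WT replicate 1 or WT replicate 3 in A1331852. With 1 library left out, 9.63% to 26% of all genes were called. MCM4, a subunit of the MCM2-7 replicative helicase, stood at 141, 138 and 114 CPM in KO and 252, 265 and 136 CPM in WT cells, with a log2 fold change of -0.68 ± 0.24 (adjusted p = 0.0660). KO replicates 1 and 2 lay far below WT replicates 1 and 2, and the groups overlapped through WT replicate 3. CCNE2, the G1/S cyclin E2, stood at 10.5, 9.63 and 12.8 CPM in KO and 19.0, 18.8 and 21.5 CPM in WT cells, with no overlap and a log2 fold change of -0.86 ± 0.41 (adjusted p = 0.176). The partner cyclin CCNE1 had a log2 fold change of -0.30 and PCNA one of -0.33, and neither was called.

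Among mitosis members under DMSO the 6 with an unadjusted p under 0.05 were all higher in KO cells. CCNA2, cyclin A2, which drives late S phase and mitotic entry, came nearest the threshold. It stood at 151, 155 and 115 CPM in KO and 121, 130 and 55.1 CPM in WT cells, and only KO replicate 3 lay within the WT range (log2 fold change 0.53 ± 0.17, adjusted p = 0.0502). BIRC5, survivin of the chromosomal passenger complex, stood at 217, 230 and 142 CPM in KO and 179, 182 and 73.2 CPM in WT cells (log2 fold change 0.51 ± 0.20, adjusted p = 0.0953). Its libraries overlapped in the same way. The other 4 were PLK1 and AURKA, kinases of mitotic entry and the spindle poles (log2 fold changes of 0.61 and 0.60), MAD2L1, a spindle checkpoint protein (0.45), and TOP2A, the topoisomerase that untangles chromosomes (0.41). The proliferation marker MKI67 was at -0.08, CCNB1 at 0.43 and its kinase CDK1 at 0.01 on the same log2 scale, none of them called.

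The batches gave different pictures of the DMSO comparison. Differences within a batch were summarized for the members alone, with no value over all genes beside them. In batch 1, with 1 library per genotype, 29 of 29 mitosis members were higher in KO, by a median of 0.76 on the log2 scale (0.20 to 1.22). In batch 2, with 2 libraries per genotype, 15 were higher and 14 lower, with a median of 0.01. S phase members were higher in KO for 14 of 22 in batch 1 (median 0.19) and for 7 of 22 in batch 2 (median -0.14). Some members held their sign in both batches: E2F2 was at -0.68 in batch 1 and -0.57 in batch 2, CCNE2 at -0.74 and -0.90, MCM4 at -0.25 and -0.89, RRM1 at 0.79 and 0.37, GMNN at 0.53 and 0.23, and CCNA2 at 1.06 and 0.29. Fitted on batch 2 alone, where the spread between libraries was least, 16 S phase members (4 higher, 12 lower) and 22 mitosis members (12 higher, 10 lower) passed, but so did 55.7% of all genes.

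Same-numbered KO and WT libraries deviated together, but in DMSO replicates 1 and 2 did so with the unlike number too (0.738 and 0.693). The DMSO values therefore cannot show pairing by number. With the replicate number as a block within each treatment, the counts under DMSO rose to 6 S phase and 5 mitosis members. Of all genes, 28.6% were then called. In that fit RRM1 and GMNN, the inhibitor of origin licensing, rose (adjusted p = 0.00609 and 0.0350), and E2F2, CCNE2, MCM4 and PCNA fell (adjusted p = 0.0185, 0.00182, 0.00654 and 0.0487). CCNA2, PLK1, AURKA, BIRC5 and CENPA, the centromeric histone, rose (adjusted p = 0.0328, 0.0126, 0.0282, 0.0166 and 0.0477).

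In A1331852, KO against WT cells gave 2 S phase and 4 mitosis members called, all 6 lower in KO, beside 28.2% of all genes called in either direction and 15% lower. In percent of members, these are 9.09% and 13.8%, both below the share of all genes. The S phase pair were subunits of the MCM2-7 helicase, MCM4 and MCM6. The mitosis members were CENPF, a kinetochore protein, KIF20A, a kinesin of the central spindle, CDC25C, the phosphatase that activates CDK1, and BUB1B, the checkpoint protein BUBR1. Medians were -0.06 over S phase, -0.05 over mitosis and -0.01 over all genes.

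MCM4 stood at 148, 137 and 103 CPM in KO and 297, 241 and 143 CPM in WT cells in A1331852 (log2 fold change -0.81 ± 0.24, adjusted p = 0.0242). MCM6 stood at 92.9, 105 and 74.2 CPM in KO and 191, 186 and 90.6 CPM in WT cells (-0.77 ± 0.24, adjusted p = 0.0289). In both genes WT replicate 3 lay among the KO libraries and the other 2 WT libraries lay far above them. The other 4 subunits of the same ring had log2 fold changes near 0: MCM2 -0.17, MCM3 -0.02, MCM5 0.12 and MCM7 0.01. E2F2 stood at 6.98, 7.78 and 2.97 CPM in KO and 19.9, 18.9 and 4.08 CPM in WT cells, again with WT replicate 3 inside the KO range, and was not called (-1.26 ± 0.47, adjusted p = 0.0632). PCNA (log2 fold change -0.59, adjusted p = 0.129) and CCNE1 (-0.20) were not called either.

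**Figure D2:**
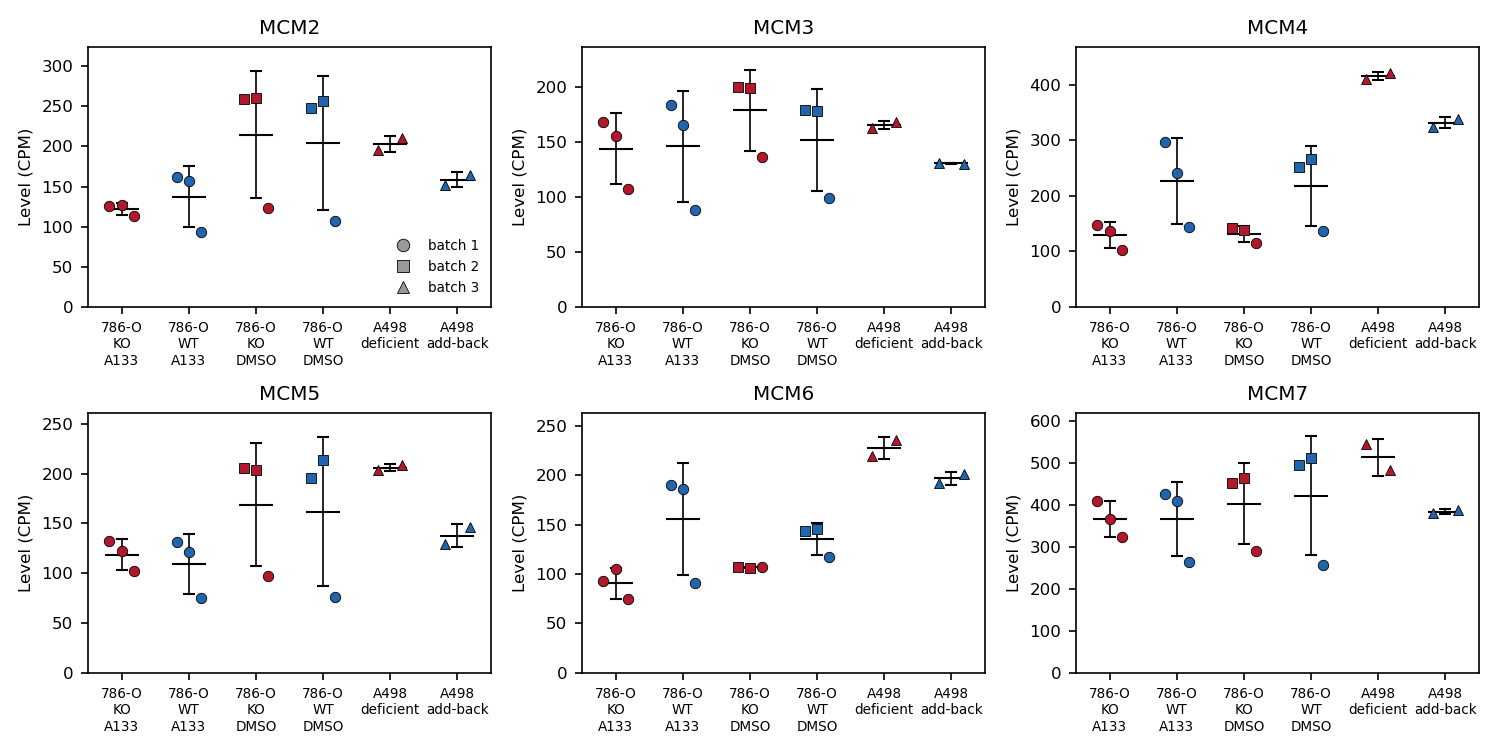
Levels in CPM of the 6 subunits of the MCM2-7 helicase in each library, by group (A133 is A1331852), with point shape for batch and a bar for the group mean ± SD. MCM4 and MCM6 were lower in KO than in WT cells in A1331852 apart from WT replicate 3, while MCM2, MCM3, MCM5 and MCM7 overlapped between the genotypes, and in A498 deficient cells lay above add-back cells for all 6.

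CENPF stood at 224, 257 and 263 CPM in KO and 522, 356 and 416 CPM in WT cells in A1331852, a log2 fold change of -0.80 ± 0.18 (adjusted p = 0.00636). KIF20A stood at 64.7, 58.3 and 47.4 CPM in KO and 149, 88.5 and 90.4 CPM in WT cells (-0.94 ± 0.23, adjusted p = 0.00989). CDC25C stood at 16.2, 14.5 and 18.7 CPM in KO and 25.9, 19.3 and 24.9 CPM in WT cells (-0.50 ± 0.15, adjusted p = 0.0262). BUB1B, of whose exon bases 10.2% are shared with neighbouring genes, stood at 60.8, 53.0 and 46.1 CPM in KO and 83.6, 65.7 and 68.4 CPM in WT cells (-0.44 ± 0.15, adjusted p = 0.0443). In all 4 genes every KO library lay below every WT library, and WT replicate 1 was the highest. Of 29 mitosis members 5 lay all lower and 1 all higher in this way, and of 22 S phase members 0 did either. Such separation was not counted over all genes here. MKI67 stood at 299, 405 and 318 CPM in KO and 657, 454 and 411 CPM in WT cells, also without overlap, and missed the threshold (-0.57 ± 0.20, adjusted p = 0.0510). CCNB1 (0.12) and CDK1 (-0.22), the engine of mitotic entry, were not called.

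CENPF was called in all 20 alternative fits of this comparison (adjusted p up to 0.0272) and KIF20A in all but the fit with no batch term (adjusted p = 0.0869). CDC25C lost its call in 6 of the 20 (adjusted p up to 0.122), among them the fits without WT replicate 1, KO replicate 1 or KO replicate 2 in A1331852. BUB1B lost it in 10 (adjusted p up to 0.158), among them the fits without WT replicate 1, KO replicate 2 or KO replicate 3 in A1331852 and without any 1 of the 4 batch 2 DMSO libraries. On the 6 A1331852 libraries and batch 1 DMSO libraries alone, CENPF and KIF20A passed (adjusted p = 0.0231 and 0.0284) and no S phase member did. The S phase count turned on single libraries: it was 0 without WT replicate 1 or without WT replicate 2, 7 (all lower) without WT replicate 3, 1 without KO replicate 1 or KO replicate 2, and 2, both higher (GMNN and RRM1, adjusted p = 0.0422 and 0.0341), without KO replicate 3. The share of all genes called was 24.8%, 20.7% and 32.5% without WT replicates 1, 2 and 3, and 22.2%, 20.3% and 29.2% without KO replicates 1, 2 and 3. The mitosis count was 2 without WT replicate 1 and 6 without WT replicate 3. With the replicate block within treatment it was 7 for S phase, where E2F2, CCNE2 and PCNA fell beside MCM4 and MCM6 (adjusted p = 0.000849, 0.00175 and 0.0036 for the added genes) and GMNN and RRM1 rose (adjusted p = 0.00932 and 0.0215). It was 6 for mitosis, with KIF11, a spindle kinesin, and MKI67 added as lower (adjusted p = 0.0154 and 0.0454), and 38.6% of all genes were called.

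**Figure D3:**
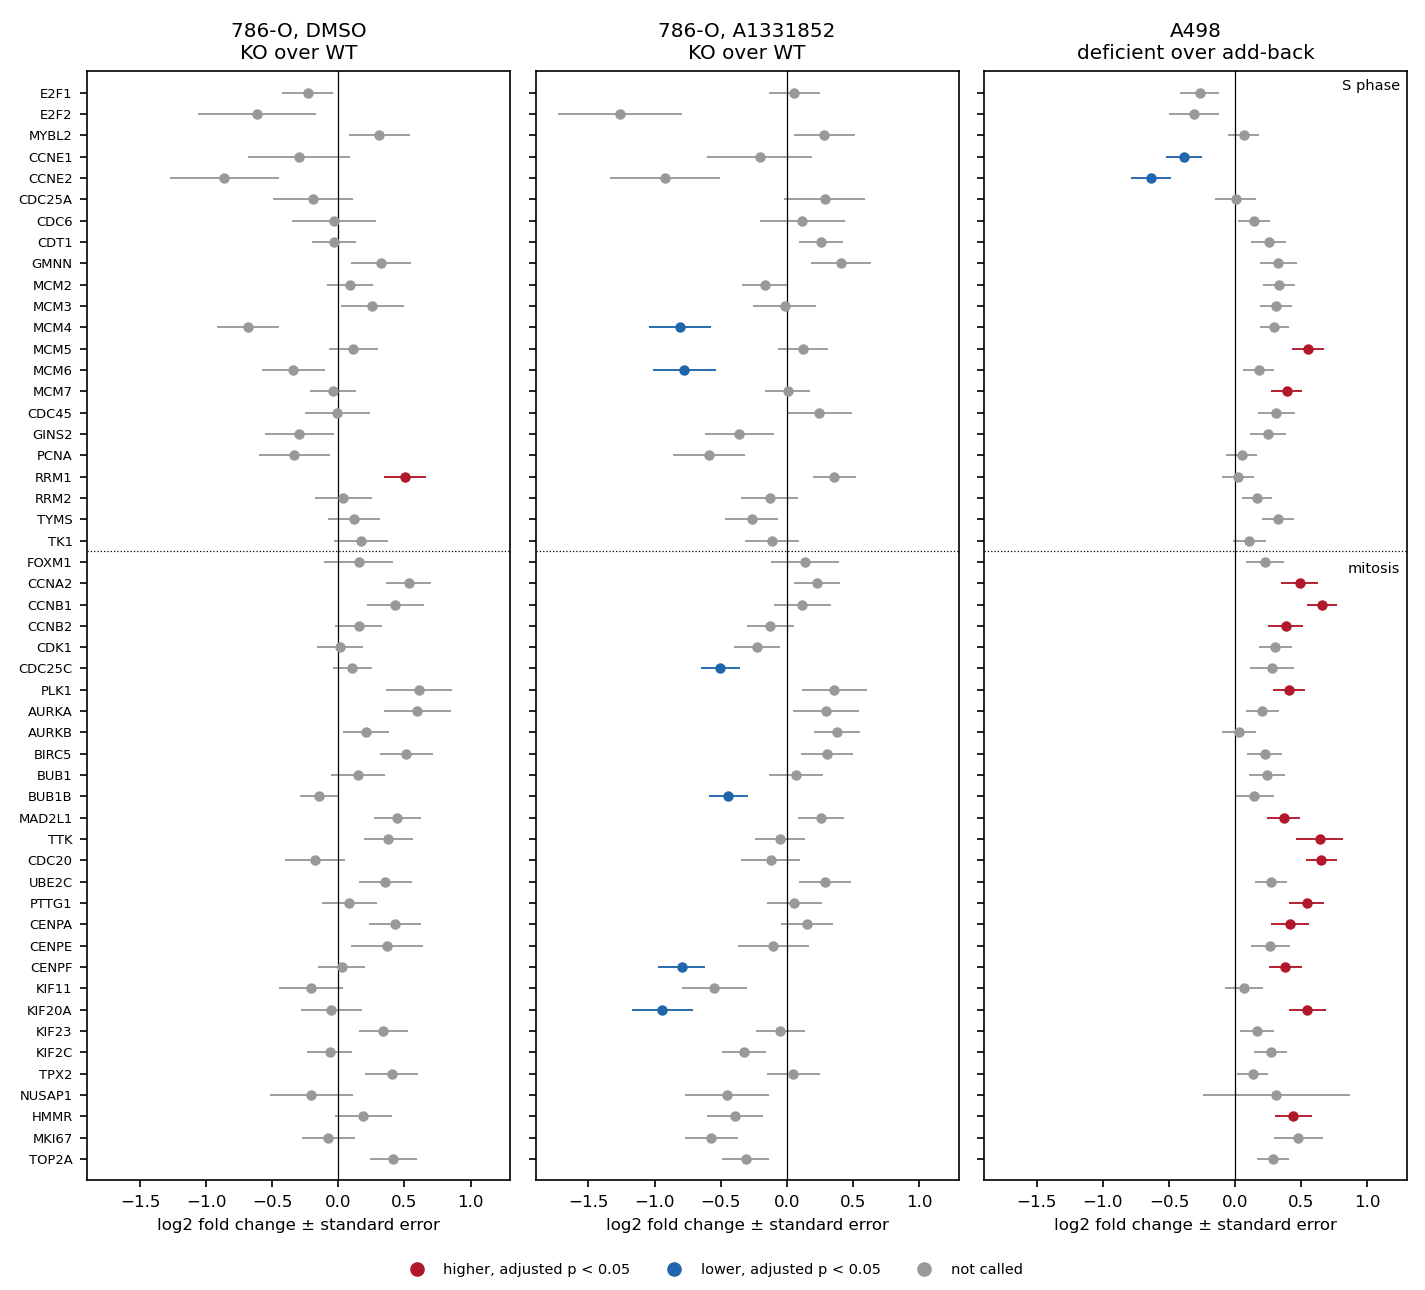
Log2 fold change ± standard error of all 51 members, S phase above the dotted line and mitosis below it, for KO over WT in 786-O in DMSO (left), KO over WT in 786-O in A1331852 (middle) and deficient over add-back in A498 (right). Coloured points passed the test (red higher, blue lower). RRM1 is the only coloured point on the left, MCM4, MCM6, CENPF, KIF20A, CDC25C and BUB1B are blue in the middle, and on the right 12 mitosis and 2 S phase members are red and the E cyclins are blue.

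The effect of the BCL-XL inhibitor was compared within each genotype. In KO cells 1 S phase and 2 mitosis members were called against DMSO, all higher in A1331852, beside 13.5% of all genes in either direction, 6.46% higher and 7.08% lower. CDT1, which loads the MCM helicase onto origins, stood at 76.7, 70.3 and 52.0 CPM in A1331852 and 89.8, 88.8 and 37.8 CPM in DMSO (log2 fold change 0.87 ± 0.21 with batch as a term, adjusted p = 0.0182). Its A1331852 libraries lay below both batch 2 DMSO libraries and above the batch 1 DMSO library. AURKB, the kinase of the chromosomal passenger complex, stood at 99.5, 76.4 and 82.2 CPM in A1331852 and 76.9, 84.1 and 44.8 CPM in DMSO (1.11 ± 0.22, adjusted p = 0.0075), and the groups overlapped. UBE2C stood at 283, 191 and 204 CPM in A1331852 and 173, 174 and 141 CPM in DMSO, with no overlap (0.82 ± 0.24, adjusted p = 0.0443). MKI67, PCNA, CCNE1, CCNB1 and CDK1 were not called.

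In WT cells 0 of 22 S phase and 0 of 29 mitosis members were called for A1331852 against DMSO by edgeR, beside 0.141% of all genes in either direction and 0.0369% higher. DESeq2 called 0 and 6, with 2.89% of all genes called. At an unadjusted p under 0.05 there were 2 S phase members, CDT1 and RRM2, and 21 mitosis members, all higher in A1331852, compared with 12.8% of all genes. The mitosis median was 0.65 on the log2 scale and the S phase median 0.33, against 0.00 over all genes, and 29 of 29 mitosis members were positive. AURKB had the smallest p, with a log2 fold change of 0.94 ± 0.23 (adjusted p = 0.143). It stood at 70.7, 52.8 and 75.5 CPM in A1331852 and 73.4, 86.4 and 28.6 CPM in DMSO, so all 3 A1331852 libraries lay above the batch 1 DMSO library, and replicates 1 and 2 of DMSO lay above that library too.

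These differences rested on which DMSO libraries were used. Those set against the DMSO libraries of either batch were summarized for the members alone, with no value over all genes. Against the single batch 1 DMSO library of WT cells, 29 of 29 mitosis members were higher in A1331852, by a median of 0.92, and 21 of 22 S phase members, by a median of 0.48. Against the 2 batch 2 DMSO libraries, 12 of 29 mitosis members were higher (median -0.09) and 3 of 22 S phase members (median -0.35). Within WT DMSO itself, batch 1 minus batch 2 had a median of -0.90 over mitosis and -0.92 over S phase members. In KO cells the medians against batch 1 DMSO were 0.11 for mitosis (21 of 29 higher) and 0.15 for S phase, and against batch 2 DMSO they were -0.13 and -0.27. Without replicate 3 of WT DMSO, the calls in KO cells came to 0 in both phases, beside 3.53% of all genes, and the WT mitosis median to 0.20. Those calls came to 3 in S phase and 4 in mitosis without WT replicate 3 in A1331852, beside 21.4% of all genes. The S phase count was 0 without KO replicate 3 in DMSO (4.68% of all genes) and 2 without KO replicate 3 in A1331852 (15.5%). The mitosis count was 1 without replicate 1 or 2 of KO cells in A1331852, of KO cells in DMSO or of WT cells in DMSO. Fits of this last kind called 7.78% to 9.12% of all genes. No member was called in KO cells on batch 1 alone, where 0.49% of all genes were, or without the batch term, where 9.16% were, and without that term CDT1 was at -0.06 in KO cells. Treatment and batch cannot be told apart beyond the 1 DMSO library of each genotype in batch 1.

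**Figure D4:**
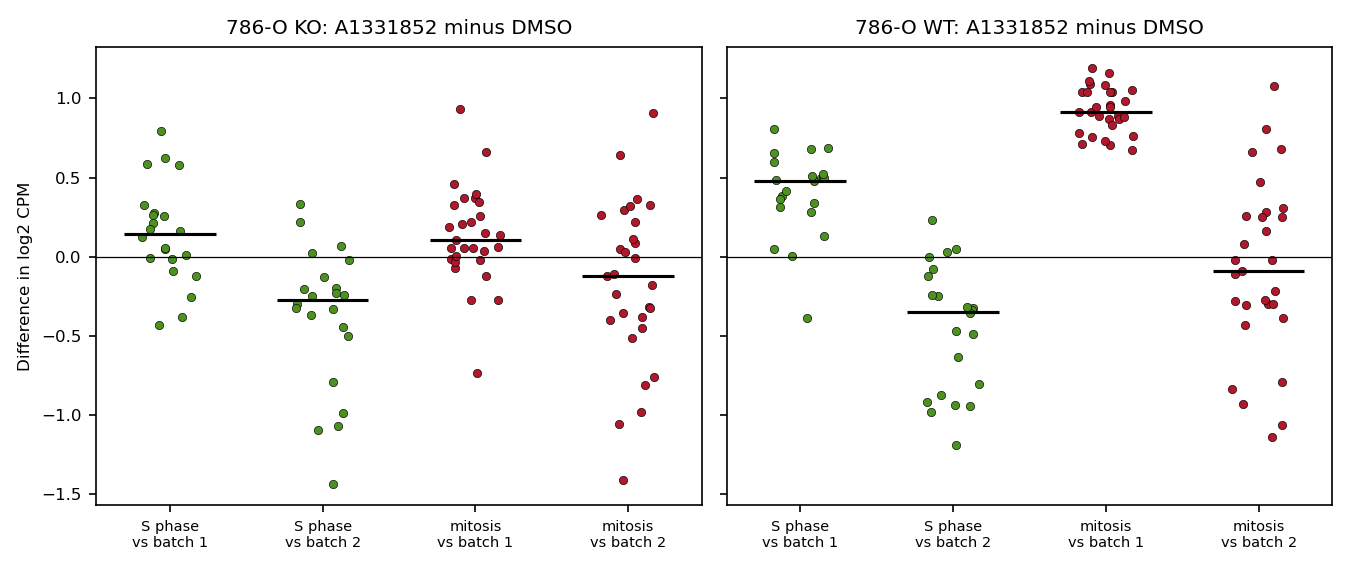
Difference in log2 CPM between A1331852 and DMSO for each S phase member (green) and mitosis member (red) in KO (left) and WT (right) 786-O cells, set against the batch 1 DMSO library or the mean of the batch 2 DMSO libraries, with a bar for the median. In WT cells the mitosis median is 0.92 against batch 1 and -0.09 against batch 2.

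The difference of these responses, KO minus WT, was called for 0 of 22 S phase and 0 of 29 mitosis members by edgeR and by DESeq2. Of all genes, edgeR called 0.295% in either direction and 0.0923% lower, and DESeq2 called 2.28%. At an unadjusted p under 0.05 there were 0 S phase and 4 mitosis members, CENPF, CDC25C, TOP2A and KIF20A, all lower, against 10.8% of all genes. CENPF was at -0.82 ± 0.25 (adjusted p = 0.236) and KIF20A at -0.89 (adjusted p = 0.329). The sign was negative for 27 of 29 mitosis members, with a median of -0.30, and the S phase median was -0.06. This difference shares its libraries with the 4 comparisons above and is no independent reading of them.

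In A498 the library labels separated mitosis members widely. In deficient against add-back cells 12 of 29 mitosis members rose and 0 fell, which is 41.4% of them, beside 30.2% of all genes called in either direction and 15.1% higher. All 29 had a positive log2 fold change, with a median of 0.31, against -0.01 over all genes, and in 23 of them both deficient libraries lay above both add-back libraries, which 34.6% of all genes tested did. By role, 4 of 10 cyclins, kinases and entry genes were called, 4 of 7 checkpoint and anaphase genes, 4 of 10 genes of the centromere, spindle and motors, and neither gene of chromosome structure. As values beside this rise, the 11 leukocyte, endothelial and fibroblast markers summed to 67.9 and 49.8 CPM in deficient and 47.7 and 42.6 CPM in add-back cells, with no overlap. COL1A1 made up most of that sum, with 1024 and 759 counts in deficient and 853 and 797 in add-back libraries. Any other marker had at most 18. Of 9 renal carcinoma identity genes 7 rose, among them PAX8 and CA9 (log2 fold changes of 0.67 and 2.03). CA9 rested on 13 and 12 counts in deficient and 4 and 3 in add-back libraries. The other 2, the renal factors PAX2 and LHX1, were lower in deficient cells and not called. The part of either in the result was not tested. S phase members were split, with MCM5 and MCM7 called higher and the G1/S cyclins CCNE1 and CCNE2 called lower, and a median of 0.17.

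CCNB1 (chr5:69167135-69178245) stood at 294 and 308 CPM in deficient and 190 and 184 CPM in add-back cells (log2 fold change 0.66 ± 0.12, adjusted p = 0.000763). CDC20 (chr1:43358981-43363203) stood at 236 and 235 CPM in deficient and 145 and 149 CPM in add-back cells (0.65 ± 0.12, adjusted p = 0.000853). The gap in both genes was many times the spread within a label. PTTG1, securin, the inhibitor of separase, stood at 107 and 120 CPM in deficient and 78.6 and 73.9 CPM in add-back cells (0.54 ± 0.13, adjusted p = 0.00617). KIF20A stood at 86.0 and 105 CPM in deficient and 61.5 and 66.2 CPM in add-back cells (0.55 ± 0.14, adjusted p = 0.00873). For KIF20A, and for CENPF (322 and 369 CPM in deficient and 275 and 245 CPM in add-back cells), the sign was opposite to 786-O in A1331852. That contrast between lines was not tested. TTK, the checkpoint kinase MPS1, stood at 42.3 and 64.1 CPM in deficient and 31.8 and 35.1 CPM in add-back cells (0.64 ± 0.18, adjusted p = 0.0142). CCNA2 stood at 141 and 186 CPM in deficient and 114 and 115 CPM in add-back cells (0.49 ± 0.14, adjusted p = 0.0180).

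PLK1 stood at 236 and 253 CPM in deficient and 173 and 188 CPM in add-back cells (log2 fold change 0.41 ± 0.12, adjusted p = 0.0190). The rest of the 12 were HMMR, a spindle-binding protein, CENPF, MAD2L1, CENPA and CCNB2, the mitotic cyclin B2, with log2 fold changes of 0.37 to 0.44. HMMR stood at 110 and 141 CPM in deficient and 94.4 and 86.9 CPM in add-back cells. MKI67 stood at 237 and 404 CPM in deficient and 212 and 239 CPM in add-back cells, with deficient replicate 1 inside the add-back range (0.48 ± 0.19, adjusted p = 0.0655). CDK1 was at 0.31 (adjusted p = 0.0815) and AURKB, at 80.4 and 72.4 CPM in deficient and 73.7 and 72.9 CPM in add-back cells, was at 0.03.

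Of the S phase members in A498, MCM5 stood at 203 and 208 CPM in deficient and 130 and 146 CPM in add-back cells (log2 fold change 0.55 ± 0.12, adjusted p = 0.00384). MCM7 stood at 544 and 483 CPM in deficient and 380 and 388 CPM in add-back cells (0.39 ± 0.11, adjusted p = 0.0199). All 11 members of origin licensing and the helicase had positive log2 fold changes, with a median of 0.31, and the 6 MCM subunits together summed to 1736 and 1725 CPM in deficient and 1308 and 1369 CPM in add-back cells. CCNE2 stood at 16.02 and 16.5 CPM in deficient and 25.9 and 23.5 CPM in add-back cells (-0.63 ± 0.15, adjusted p = 0.00566). CCNE1 stood at 29.2 and 30.1 CPM in deficient and 36.9 and 39.1 CPM in add-back cells (-0.39 ± 0.14, adjusted p = 0.0445). Neither cyclin overlapped between the labels. PCNA was at 0.05 (adjusted p = 0.777) and RRM1, which rose in KO cells of 786-O in DMSO, at 0.02.

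**Figure D5:**
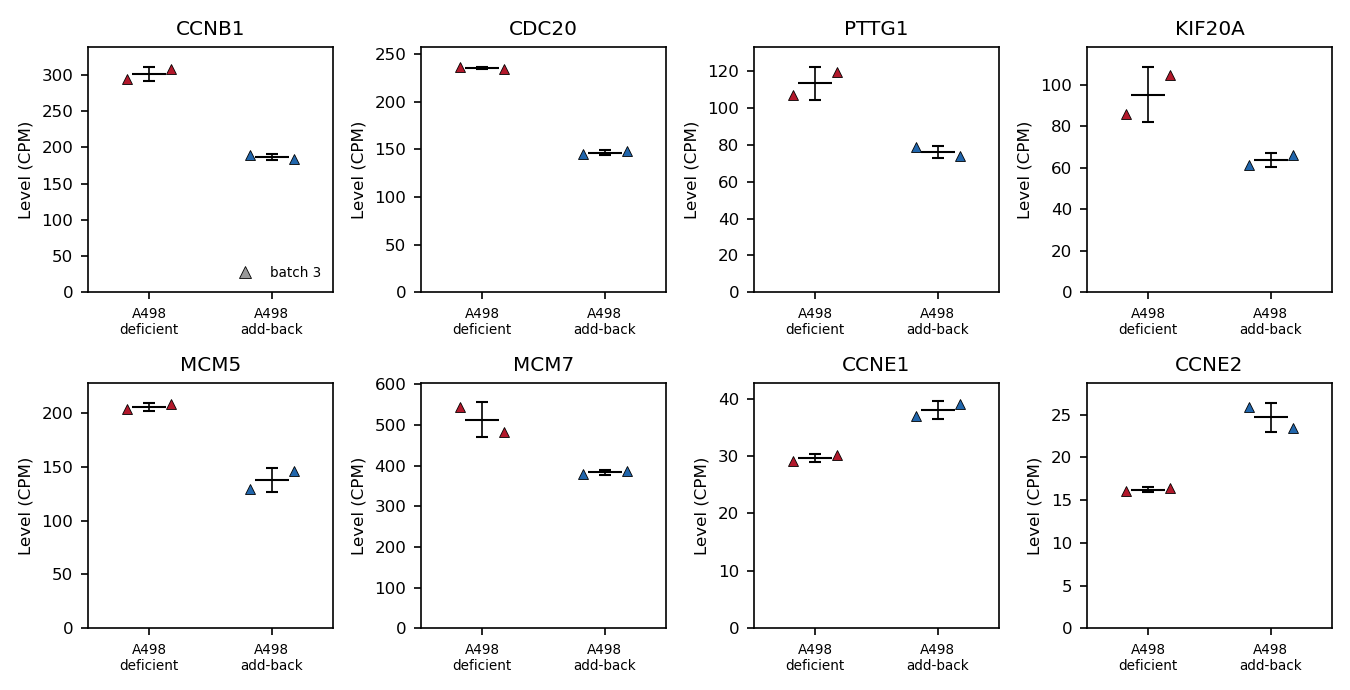
Levels in CPM of 4 mitosis members (top) and 4 S phase members (bottom) in the A498 libraries labelled SETD2 deficient and add-back, with a bar for the mean ± SD of 2 libraries. CCNB1, CDC20, PTTG1, KIF20A, MCM5 and MCM7 are higher and CCNE1 and CCNE2 lower in deficient cells, with no overlap in any of the 8 genes.

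With 2 libraries a label, the A498 counts turned on each of them. The mitosis count was 21 without deficient replicate 1, 13 without deficient replicate 2, 2 without add-back replicate 1 and 3 without add-back replicate 2, all higher, and the S phase count was 12, 10, 0 and 2 in the same order, beside 38.7%, 35.1%, 14.3% and 13.9% of all genes. The lone library of a label is then taken to vary like the pair of the other label. CCNB1 and CDC20 were called in all 8 alternative fits (adjusted p up to 0.0292 and 0.0294).

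The KO effect in 786-O in DMSO minus the deficient effect in A498 was tested as a difference between the lines. SETD2 RNA did not separate the A498 labels, so the A498 side is a difference between labels. By edgeR 0 of 22 S phase and 0 of 29 mitosis members differed, beside 13.2% of all genes (6.12% higher, 7.1% lower). At an unadjusted p under 0.05 there were 1 and 1. DESeq2 called 1 and 0, with 16% of all genes called. MCM4 came nearest, with a difference of -1.01 ± 0.34 (adjusted p = 0.0603). It was lower in KO cells of 786-O and stood at 411 and 420 CPM in deficient and 324 and 338 CPM in add-back A498 cells. CDC20 had a difference of -0.86 ± 0.32 (adjusted p = 0.0933). The medians were -0.25 over S phase, -0.21 over mitosis and -0.03 over all genes. Line, batch, library number and the way SETD2 was changed all differ together between the lines and cannot be told apart.

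Over the 7 comparisons, 24 of the 51 members (47.1%) were called in at least 1, against 54.6% of the 14325 genes tested in all 7. CENPF and KIF20A were the 2 members called in more than 1, against 31% of those genes. Both were lower in KO cells in A1331852 and higher in deficient A498 cells. The 27 never called were 14 of 22 S phase members (E2F1, E2F2, MYBL2, CDC25A, CDC6, GMNN, MCM2, MCM3, CDC45, GINS2, PCNA, RRM2, TYMS and TK1) and 13 of 29 mitosis members (FOXM1, CDK1, AURKA, BIRC5, BUB1, CENPE, KIF11, KIF23, KIF2C, TPX2, NUSAP1, MKI67 and TOP2A). They include the factors that drive both programmes. MYBL2 stood at 271, 256 and 196 CPM in KO and 255, 217 and 124 CPM in WT cells in A1331852, and at 477, 472 and 219 CPM in KO and 428, 442 and 134 CPM in WT cells in DMSO. FOXM1 stood at 143, 124 and 98.6 CPM in KO and 159, 98.9 and 74.7 CPM in WT cells in A1331852, and at 214, 210 and 95.9 CPM in KO and 231, 235 and 55.9 CPM in WT cells in DMSO. In both genes the batch 2 DMSO libraries were the highest of 786-O, the batch 1 DMSO library of each genotype stood far below them, and the genotypes overlapped. E2F1, an activator E2F, had log2 fold changes of -0.23 in DMSO, 0.06 in A1331852 and -0.27 in A498 (adjusted p = 0.452, 0.855 and 0.193).

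Other genes of the pathway were described from 5 lists, of which 103 genes were tested. In all, 6.8% of them were called for KO against WT cells in DMSO (18.5% of all genes), 16.5% in A1331852 (28.2%), 9.71% for A1331852 against DMSO in KO cells (13.5%) and 22.3% in A498 (30.2%). In the list of G1 cyclins, kinases, retinoblastoma family and MuvB genes, 20 of 21 were tested. For KO against WT cells 0 rose and 1 fell in DMSO, and 2 rose and 3 fell in A1331852. CCND1, cyclin D1, which starts the release of E2F, averaged 382 ± 91.63 CPM in KO and 1260 ± 497.5 CPM in WT cells in A1331852 (SD, n = 3 each), a log2 fold change of -1.72 (adjusted p = 0.00065). It averaged 288 ± 22.2 CPM in KO and 657 ± 40.8 CPM in WT cells in DMSO (SD, n = 3 each), a log2 fold change of -1.19 (adjusted p = 0.00755). In A498 it averaged 163 CPM under both labels. CCND3, cyclin D3, rose in KO cells in A1331852 (1.41, adjusted p = 0.000574), as did CDK6, a kinase of the D cyclins (0.47), while RBBP4, a subunit of MuvB, and RBL2, the pocket protein p130, fell (-0.54 and -0.66). For A1331852 against DMSO in KO cells 4 rose, CDK2, the kinase of the E cyclins, E2F7, a repressor E2F, and the MuvB subunits LIN9 and LIN52 (0.89, 2.07, 0.73 and 0.73), and 0 fell. That count ran from 1, without replicate 3 of WT or of KO cells in DMSO, to 8, without replicate 3 of WT or of KO cells in A1331852. In the same order, 3.53%, 4.68%, 21.4% and 15.5% of all genes were called. In A498 TFDP1, the partner of E2F proteins, CDK6 and RBBP4 rose (0.89, 0.37 and 0.35) and LIN37, a MuvB subunit, fell (-0.93). With 1 library left out the count was 0 to 2 for KO against WT cells in DMSO and 3 to 6 in A1331852. Those fits called 9.63% to 26% and 20.3% to 32.5% of all genes. The A498 count also turned on single libraries.

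Of 7 CDK inhibitor genes 5 were tested, and CDKN2B was at 0 in all libraries. CDKN1A, the inhibitor p21, averaged 283 ± 80.1 CPM in KO and 474 ± 114 CPM in WT cells in A1331852 (SD, n = 3 each) and fell (log2 fold change -0.74, adjusted p = 0.0165). It was the 1 call of the list there, and without KO replicate 1 or KO replicate 2 in A1331852 there was 0, beside 22.2% and 20.3% of all genes. In A498 CDKN2D, the inhibitor p19, fell in deficient cells (-1.13, adjusted p = 0.00272). No inhibitor was called in the other 786-O comparisons.

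Of 30 further S phase genes, 0 rose and 3 fell in KO against WT cells in DMSO, 1 rose and 4 fell in A1331852, and 6 rose and 2 fell in deficient against add-back A498 cells. These are 10%, 16.7% and 26.7% of the list, beside 18.5%, 28.2% and 30.2% of all genes. With 1 library left out, 2 to 10 were called for KO against WT cells in DMSO and 3 to 13 in A1331852. Those fits called 9.63% to 26% and 20.3% to 32.5% of all genes. Counts and shares were both highest without WT replicate 3 in A1331852. The A498 count also turned on single libraries. RAD51AP1, which acts in homologous recombination, fell in all 3 comparisons. It averaged 17.1 ± 1.20 CPM in KO and 38.3 ± 4.17 CPM in WT cells in A1331852, and 12.03 ± 1.12 CPM in KO and 23.8 ± 2.97 CPM in WT cells in DMSO (SD, n = 3 each). In A498 it averaged 17.9 ± 0.511 CPM in deficient and 38.4 ± 0.749 CPM in add-back cells (SD, n = 2 each). Its log2 fold changes were -1.16, -0.99 and -1.13 (adjusted p = 0.000193, 0.00082 and 4.15e-05). POLD3, a subunit of DNA polymerase delta, fell in KO cells under both treatments (-0.81 in A1331852, -0.70 in DMSO) and rose in deficient A498 cells (0.58). RPA2, a subunit of the single-strand binding protein RPA, fell in KO cells in DMSO (-0.38). In A1331852, ATAD2, a chromatin ATPase, fell (-0.68) and FEN1, the flap endonuclease, rose (0.78). In A498 WDR76 fell (-1.81), and CDCA7 and DTL, the substrate receptor that removes CDT1, were among the 6 that rose (0.79 and 0.64). In KO cells 2 rose in A1331852 against DMSO, RPA2 (0.53) and the helicase BLM (0.80), and 0 did in WT cells. Of all genes, 6.46% rose in KO cells and 0.0369% in WT cells.

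Of 33 further G2 and mitosis genes, 1 rose and 1 fell in KO against WT cells in DMSO, 1 rose and 5 fell in A1331852, and 7 rose and 0 fell in deficient against add-back A498 cells. The called shares of this list were 6.06%, 18.2% and 21.2%, beside 18.5%, 28.2% and 30.2% of all genes. With 1 library left out, 0 to 5 were called for KO against WT cells in DMSO, the most without KO replicate 1 in A1331852. In A1331852 the count was 2 to 8, the most without WT replicate 2. Those fits called 9.63% to 26% and 20.3% to 32.5% of all genes, and 20.3% and 20.7% where the list count was highest. The A498 count also turned on single libraries. ANP32E, a histone chaperone, fell in KO cells both in A1331852 (log2 fold change -1.22, adjusted p = 0.000839) and in DMSO (-0.76, adjusted p = 0.0173). In A1331852, CDCA8, of the chromosomal passenger complex, NUF2, of the kinetochore, NEK2, a centrosome kinase, and KIF20B, a kinesin, fell (-0.60, -0.68, -0.61 and -0.69), and RANGAP1 rose (0.62). GAS2L3 rose in KO cells in DMSO (0.60) and in deficient A498 cells (0.97). HJURP, which deposits CENPA at centromeres, had the smallest adjusted p of the list in A498 (1.10, adjusted p = 1.42e-05), beside LBR (0.60) and ECT2 (0.62). Of 15 origin recognition and firing factors, TOPBP1 rose in KO cells in DMSO (0.44), 0 were called in A1331852 (4 at an unadjusted p under 0.05), and GINS3, GINS4 and TICRR rose in deficient A498 cells (0.82, 0.64 and 0.69). Of all genes, 39.6% had an unadjusted p under 0.05 for KO against WT cells in A1331852. With 1 library left out the origin count was 0 to 3 in each 786-O genotype comparison, beside the same shares of all genes as above. In A498 it also turned on single libraries. For A1331852 against DMSO in KO cells LBR, CKS1B (0.76 and 0.75) and ORC6, of the origin recognition complex (0.91), rose. RANGAP1 was called higher as well (0.61 with batch as a term), although it averaged 314 ± 33.8 CPM in A1331852 and 374 ± 126 CPM in DMSO (SD, n = 3 each). Its batch 1 DMSO library, at 228 CPM, was the lowest of the 6. Without replicate 3 of WT or of KO cells in DMSO, 0 of the 33 genes, 0 of the 15 and 0 of the 30 were called for this comparison. Of all genes, 3.53% and 4.68% were called in those fits. In WT cells edgeR called 0 genes of these lists for A1331852 against DMSO, beside 0.141% of all genes. At an unadjusted p under 0.05 there were 10 of the 30 S phase genes, 16 of the 33 G2 and mitosis genes and 4 of the 15 origin factors. Of all genes, 12.8% passed that threshold.

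Markers of other cell types moved with genotype beside these counts. Only 3 of the 11 could be tested in 786-O, and for KO against WT cells in DMSO CD14 rose (log2 fold change 2.95) and LUM fell (-1.87), with the same signs in A1331852 (1.77 and -2.70). The third, COL1A1, a fibroblast collagen, was not called in either (0.26 and 0.04) and averaged 8.40 CPM in KO and 7.18 CPM in WT cells in DMSO. CD14, a monocyte marker, averaged 1.03 CPM in KO and 0.127 CPM in WT cells in DMSO, and LUM, a fibroblast matrix gene, 1.62 CPM in KO and 5.99 CPM in WT cells. The 11 markers summed to 5.12 to 5.68 CPM in KO and 8.76 to 12.9 CPM in WT cells in A1331852, and to 9.20 to 12.5 CPM in KO and 12.98 to 14.3 CPM in WT cells in DMSO, with CD3E, a T cell marker, at 0 in every 786-O group. Their part in the differences of the cell cycle genes was not tested.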

How the data were processed

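Polyadenylated RNA of 16 libraries was counted by the authors, who deposited raw counts per exon set of a gene (featureCounts 1.5.0-p3, strand setting 2, per the file headers; STAR, MultiQC 1.7 and DESeq2 per the submitters' processing notes, and GENCODE release 41). Groups, replicates and batches came from the labels. The 51 members and all gene lists were chosen with earlier results of these data known. The test was edgeR's quasi-likelihood F test (edgeR 4.0.16 in R 4.3.3, TMM factors, filterByExpr at a minimum count of 10). It was fitted to the 12 libraries of 786-O together with batch as a term, the 4 of A498 apart, and all 16 for the difference between lines. A call is a Benjamini-Hochberg adjusted p under 0.05 over all genes tested. A prior count of 2 was used for log2 CPM, and standard errors were derived from the F statistic. DESeq2 1.42.0 was an alternative. Figures used Python 3.11.15 and matplotlib 3.10.9.

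Named genes were, for each comparison and phase, the 8 called members of lowest adjusted p at most (where none was called, those 2 of lowest unadjusted p), always MKI67, PCNA, CCNE1, CCNB1 and CDK1, and from each other list up to 4 called genes. Other members named for their values, or to complete a count, were chosen after their values were seen. The result of 1 gene of the other lists is not reported here. The fits were tested on simulated data. Alternatives were other scaling, no filter, no batch term, replicate blocks, single batches and each library left out.

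The labels do not state that the replicates of a group were grown apart, so each p-value here refers to library-to-library spread that can be partly technical. Libraries of 1 group were not copies of each other: their mean chi-square per gene was 3.16 and 3.72 for replicates 1 and 2 of KO and WT cells in DMSO and 6.13 to 131 for the other pairs. As a check of pairing, deviations of same-numbered KO and WT libraries from their group means correlated at 0.742, 0.73 and 0.824 in DMSO. In A1331852 they correlated at 0.305, 0.37 and 0.585. Those numbers were taken as pairs in the block fits alone. Batch was not removed from the deviations, and in DMSO replicate 3 is batch 1 and replicates 1 and 2 are batch 2. The DMSO values therefore cannot show pairing by number. DMSO replicates 1 and 2 correlated as well with the unlike number (0.738 and 0.693), and in A1331852 these gave 0.195 and 0.321. A1331852 and DMSO libraries were not paired by number (-0.0626 to 0.114). Depth was 14172118 to 36037616 counts per library.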

Additional observations from a re-analysis of the deposited data

Results flagged for a closer look

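No member differed in its response between the lines past the threshold, but 10 of the 103 tested genes of the other cell cycle lists did (9.71%, against 13.2% of all genes) when the KO effect in 786-O in DMSO minus the deficient effect in A498 was tested with edgeR (adjusted over all genes). POLD3, the polymerase delta subunit, differed by -1.31 ± 0.20 on the log2 scale (adjusted p = 0.000678), lower in KO cells of 786-O and higher in deficient A498 cells. DTL differed by -1.09 (adjusted p = 0.00552) and WDR76 by 1.74 (adjusted p = 0.00593), both with their larger change in A498. TFDP1 differed by -0.88 (adjusted p = 0.0261), RBBP4 by -0.61 (adjusted p = 0.0321) and LBR by -0.71 (adjusted p = 0.0254). RPA2 differed by -0.59 (adjusted p = 0.0326) and HJURP by -0.69 (adjusted p = 0.0467). CCND1 differed by -1.20 (adjusted p = 0.0429) and CDK4, the other kinase of the D cyclins, by -0.52 (adjusted p = 0.0456). Of the genes that describe the cells, VIM differed by -1.08 (adjusted p = 0.00073), PAX8 by -1.03 (adjusted p = 0.0042) and CD14 by 1.92 (adjusted p = 0.0467).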

How the results depend on the processing

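Of 26 member calls, 3 held in every alternative, CENPF for KO against WT cells in A1331852 and CCNB1 and CDC20 in A498, and 1 changed sign in any, CDT1 for A1331852 in KO cells. Counts are of called mitosis, then S phase, members. The percent beside a count is the share of all genes called in that fit. For KO against WT in DMSO (0 and 1), DESeq2 gave 2 and 2 (22.5%) and DESeq2's size factors 1 mitosis (18.3%). No filter gave 5 and 4 (11%), no batch term 0 S phase (9.16%) and batch 2 alone 22 and 16 (55.7%). The replicate block gave 5 and 6 within treatment (28.6%) and 4 and 6 across treatments (29.9%). For KO against WT in A1331852 (4 and 2), no filter gave 5 S phase (15.1%) and no batch term 1 and 1 (15.3%). The block gave 7 S phase within treatment (38.6%) and 8 across (39.7%). Batch 1 alone gave medians of -0.053 and -0.067. Omitting both replicates 3 in A1331852 (chosen after seeing the data) gave 8 S phase (36.5%). For A1331852 in WT cells (0 and 0), DESeq2 gave 6 mitosis (2.89%) and no filter 14 and 1 (2.66%). The block across treatments gave 8 (all higher) and 4 (all lower, S phase median -0.15), with 17.4% of all genes. Omitting both replicates 3 gave 4 S phase (all higher, median 0.58), with 1.27%. In KO cells (2 and 1), DESeq2 gave 2 S phase (18.9%), no filter 8 and 4 (8.89%) and no batch term 0 and 0 (9.16%). The block gave 5 (4 higher, 1 lower) and 6 (1 higher, 5 lower, S phase median -0.20), with 26.5% of all genes. Batch 1 alone gave medians of 0.086 and 0.14. Omitting both replicates 3 gave 9 and 12 (all higher, S phase median 0.46), with 31%, so the S phase direction turned between these settings. The block across treatments ties A1331852 to DMSO libraries by number, although they were not paired by number (-0.0626 to 0.114). For the difference of responses (0 and 0), no filter gave 3 mitosis (1.9%) and omitting both replicates 3 gave 2 S phase (5.51%). In A498 (12 and 4), no filter gave 7 mitosis (11.7%) and the replicate block 8 S phase and 15 mitosis (37.7%). For the difference between lines (0 and 0), no filter gave 1 and 1 (7.34%) and DESeq2 1 S phase (16%). The block gave 1 and 1 (CDC20, adjusted p = 0.0136, and MCM4, adjusted p = 0.00495), with 20.7% of all genes. Leaving out 1 library gave 0 to 3 and 0 to 3 for KO against WT in DMSO, 2 to 6 and 0 to 7 in A1331852, 0 to 0 for A1331852 in WT, 0 to 4 and 0 to 3 in KO, 0 to 0 for their difference, 2 to 21 and 0 to 12 in A498, and 0 to 1 and 0 to 1 between lines. Signs of single genes also turned (log2), CDT1 in KO cells being the 1 called. Without the batch term these were, for A1331852 in WT, MKI67 -0.34, CDT1 -0.39 and SETD2 -0.0076, and in KO, MKI67 -0.72, PCNA -0.072, CCNB1 -0.18 and CDT1 -0.063. With the block across treatments they were PCNA -0.41 in WT, and MKI67 -0.038 and PCNA -0.63 in KO. With batch 1 alone they were MKI67 -0.044 and PCNA -0.067 in KO and CCNE1 -0.019 for the difference of responses, with batch 2 alone CDK1 -0.18 for KO against WT in DMSO, with both replicates 3 omitted CCNE1 0.12 in KO, and with the block in A498 SETD2 -0.013. With 1 library left out the ranges that crossed 0 were, for KO against WT in DMSO, MKI67 -0.31 to 0.036 and CDK1 -0.22 to 0.078, in A1331852 CCNE1 -0.58 to 0.15 and CCNB1 -0.095 to 0.33, for A1331852 in WT SETD2 -0.092 to 0.065, in KO MKI67 -0.049 to 0.60, PCNA -0.16 to 0.26 and CCNE1 -0.62 to 0.11, for their difference CCNE1 -0.31 to 0.43, and in A498 SETD2 -0.28 to 0.25. Apart from the counts and genes given here and in the results, the replicate block within treatment changed no other member call. The causes were not tested.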
